A study of Bos taurus with 3 samples.

Results

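The Hippo pathway limits the activity of the co-activators YAP1 and WWTR1 (the gene of TAZ) through the LATS kinases. Phosphorylated by LATS1 or LATS2, the co-activators are held in the cytoplasm or degraded. Unphosphorylated, they enter the nucleus and bind TEAD transcription factors at genes such as CTGF and CYR61, which encode secreted matricellular proteins of the CCN family. In cultured fibroblasts the pathway is known to respond to cell density, matrix stiffness and serum. RNA of 10 of its genes is described here, chosen by symbol from a table of 31903 genes: the kinases LATS1 and LATS2, the co-activators YAP1 and WWTR1, the factors TEAD1, TEAD2, TEAD3 and TEAD4, and the targets CTGF and CYR61. The table lists the targets under these older symbols, and current annotation calls them CCN2 and CCN1.

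The cells were BFF116, fibroblasts of a bovine fetus kept in culture as donors of nuclei for cloning, and each of the 3 libraries came from 70000 of them. All 3 belong to 1 group, cells starved of serum for 48 h, so every value is of starved cells, and fed cells were not analysed here. The labels call the libraries biological replicates but name no culture or animal for each, and p-values here measure only the spread between these libraries, some of which may be technical. Reads assigned to genes numbered 4842331 to 8608350 per library. Values are CPM, read counts scaled to a common effective library size, given with their SD over the 3 libraries (n = 3), and they are not corrected for transcript length. Levels of different genes are therefore compared as reads, not as transcripts.

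The cells carried RNA of the listed fibroblast markers and little of the listed epithelial, endothelial, leukocyte and skeletal muscle markers. Markers of smooth muscle cells and pericytes were not examined. All 10 of 10 fibroblast markers stood at 1 CPM or more in every library, with summed levels of 112482 to 123761 CPM. Epithelial markers (0 of 7 at that level) summed to 1.90 to 4.63 CPM with EPCAM and CLDN4 at 0 reads. Endothelial markers (2 of 5) summed to 5.64 to 12.2 CPM with KDR and CLDN5 at 0 reads. The endothelial markers at that level were TEK (65, 15 and 50 reads in replicates 1 to 3) and PECAM1 (38, 10 and 10 reads). Leukocyte markers (2 of 6) summed to 4.03 to 9.01 CPM with PTPRC and CD14 at 0 reads. The leukocyte markers at that level were CD68 (32, 9 and 33 reads) and LYZ (28, 10 and 21 reads). Over all genes in the table, 34.6% reached 1 CPM in every library. Skeletal muscle markers (0 of 5) summed to 0.713 to 2.82 CPM with MYOD1 and DES at 0 reads. These are bulk samples, in which fewer cells of a type and less RNA per cell cannot be told apart.

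All 10 genes were measured, that is, they had 1 CPM or more in every library, a level that 34.6% of all genes in the table and 61.2% of genes with a read reached. At 10 CPM or more in every library 8 of 10 remained, against 20.6% of all genes, and at 100 CPM or more 5 of 10, against 4.33%. The median of the 10 genes was 111.6 CPM, beside 0.134 CPM over all genes in the table and 23.1 CPM over the 10434 genes with 10 or more reads in every library. The members were chosen with earlier results of these data known, so these shares describe them and support no statement about the pathway.

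**Figure D1:**
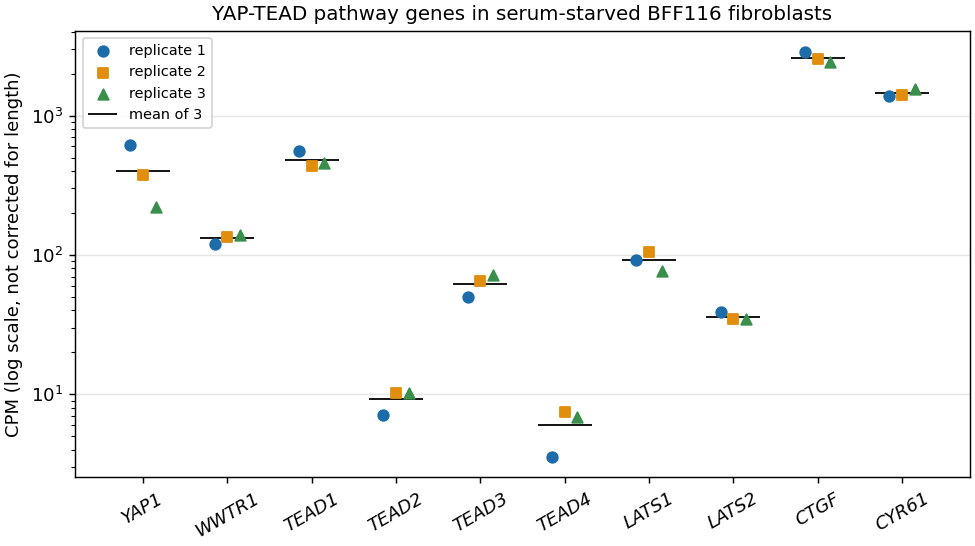
CPM (log axis, not corrected for length) of the 10 genes in each of the 3 libraries (points) with their mean (bars). CTGF and CYR61 lie above the other genes in every library, TEAD2 and TEAD4 below them, and YAP1 has the widest scatter, 221 to 611 CPM.

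In order of mean CPM the genes ran CTGF, CYR61, TEAD1, YAP1, WWTR1, LATS1, TEAD3, LATS2, TEAD2 and TEAD4. Of the 9 pairs of neighbours in this order, 7 had ranges over the libraries that did not overlap. The exceptions were TEAD1 with YAP1 and TEAD2 with TEAD4. Because long transcripts yield more reads, the order may differ per transcript.

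The LATS kinases, which phosphorylate YAP1 and TAZ, had moderate numbers of reads, and LATS1 had more than LATS2 in every library. LATS1 stood at 92.5, 105 and 76.7 CPM in replicates 1 to 3 (91.3 ± 14.1 CPM), and LATS2, which is itself induced by YAP in other cells, at 39.0, 34.5 and 34.5 CPM (35.96 ± 2.60 CPM). The ranges of the kinases did not overlap. The log2 ratio of LATS2 over LATS1, on CPM + 0.5, was -1.32 ± 0.24 and below 0 in all 3 libraries. LATS2 took 29.6% of the reads of both genes in replicate 1 (exact 95% binomial interval 27.0 to 32.4%), 24.7% in replicate 2 (21.6 to 28.1%) and 31.0% in replicate 3 (27.8 to 34.4%). The intervals of replicates 1 and 3 overlap, and that of replicate 2 overlaps both. An exact two-sided sign-flip permutation test of 3 libraries cannot give a p below 0.25, so this and the other ratios between genes are described by direction, mean and SD.

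YAP1 had the largest coefficient of variation (CV, SD over mean) over the libraries of the 10 genes. It had 5143, 1870 and 1574 reads in replicates 1 to 3, equal to 611, 377 and 221 CPM (403 ± 196 CPM). Its highest library, replicate 1, exceeded its lowest, replicate 3, by a factor of 2.76, and it ranked 226th by CPM in replicate 1, 387th in replicate 2 and 676th in replicate 3. Its mean was 299 CPM without replicate 1, 416 CPM without replicate 2 and 494 CPM without replicate 3. WWTR1, whose product TAZ shares partners and targets with YAP1, stayed between 120.4 and 139.9 CPM, with 120.4, 135 and 139.9 CPM in replicates 1 to 3 (132 ± 10.2 CPM). WWTR1 was lowest in replicate 1, the library where YAP1 was highest, and the ranges of the co-activators did not overlap.

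The balance of reads between the co-activators therefore moved from library to library. The log2 ratio of WWTR1 over YAP1 was -2.34, -1.47 and -0.66 in replicates 1 to 3 (-1.49 ± 0.84), below 0 in all 3. WWTR1 took 16.5% of the reads of both genes in replicate 1 (exact 95% binomial interval 15.6 to 17.4%), 26.4% in replicate 2 (24.7 to 28.2%) and 38.7% in replicate 3 (36.8 to 40.6%). These intervals do not overlap, and they cover counting error only, since PCR copies without molecular identifiers are not independent molecules. Transcript length does not enter this comparison, which sets the same pair of genes side by side in different libraries, unless the isoforms differed between them. Summed over both genes, the co-activators stood at 731, 512 and 361 CPM.

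**Figure D2:**
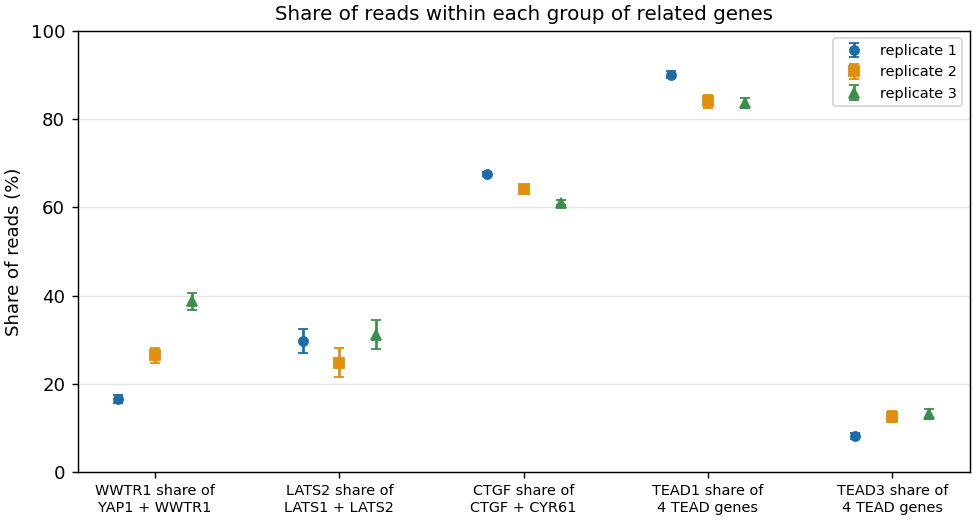
Share of reads (%) taken by 1 gene among its relatives in each library, with exact 95% binomial intervals that cover counting error only. The WWTR1 share runs from 16.5% to 38.7% and the CTGF share from 61.1% to 67.7%, each with intervals that do not overlap between libraries. The TEAD1 share runs from 83.8% to 90.1%, and its interval in replicate 1 lies above those of replicates 2 and 3.

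Among the TEAD factors, which carry the DNA-binding domain that YAP1 and TAZ lack, TEAD1 held most of the reads. TEAD1 stood at 556, 436 and 456 CPM in replicates 1 to 3 (483 ± 64.3 CPM), and TEAD3 at 50.1, 64.9 and 71.2 CPM (62.1 ± 10.8 CPM). TEAD2 had 60, 51 and 73 reads, or 7.13, 10.3 and 10.3 CPM (9.23 ± 1.82 CPM). TEAD4, best known for its part in forming trophectoderm in the mouse embryo, had 30, 37 and 49 reads, or 3.56, 7.46 and 6.89 CPM (5.97 ± 2.10 CPM). TEAD1 exceeded the other 3 in every library.

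TEAD1 took 90.1% of the TEAD reads in replicate 1 (exact 95% binomial interval 89.3 to 90.9%), 84.1% in replicate 2 (82.6 to 85.5%) and 83.8% in replicate 3 (82.6 to 84.9%), a mean of 86.0 ± 3.60%. TEAD3 took 11.2 ± 2.71%, TEAD2 1.67 ± 0.45% and TEAD4 1.09 ± 0.46%. The log2 ratio of TEAD1 over TEAD3 was 2.96 ± 0.44, over TEAD2 5.65 ± 0.47 and over TEAD4 6.27 ± 0.72, each above 0 in 3 of 3 libraries. Replicate 1 had the highest TEAD1 level and the lowest TEAD2, TEAD3 and TEAD4 levels of the 3 libraries. The summed TEAD level was nevertheless close between libraries, at 617, 519 and 544 CPM.

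TEAD2 and TEAD4 rest on few reads. In replicate 1 the exact 95% Poisson interval of TEAD4, which covers counting error only, ran from 2.40 to 5.09 CPM. It lay below the interval of replicate 2, 5.25 to 10.3 CPM, and just below that of replicate 3, 5.10 to 9.12 CPM. TEAD2 had overlapping intervals in all 3 libraries, from 5.44 to 9.17 CPM in replicate 1, 7.65 to 13.5 CPM in replicate 2 and 8.05 to 12.9 CPM in replicate 3. In the RefSeq annotation of ARS-UCD2.0, TEAD2 overlaps CD37 and the miRNA gene MIR2330, TEAD1 overlaps the miRNA gene MIR2314, TEAD4 the lncRNA gene LOC132345350 and LATS1 the pseudogene LOC782566. Their reads in replicates 1 to 3 were 5, 3 and 9 for CD37, 0 in every library for MIR2330 and MIR2314, and 11, 3 and 4 for LOC782566, while LOC132345350 was not analysed here. The strand setting of the counting is not given in the sources used here, so reads of overlapping genes cannot be told apart. How many reads of the 4 related TEAD genes were lost as ambiguous alignments was not tested. Of the other trophoblast markers set beside TEAD4, CDX2, ELF5 and IFNT had 0 reads, TFAP2C 0, 0 and 1, GATA3 1, 0 and 0, and KRT18 0, 0 and 2.

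CTGF and CYR61, the targets most often used to read YAP and TEAD activity, were the most abundant of the 10 genes. CTGF had 24270, 12547 and 17199 reads in replicates 1 to 3, or 2883, 2528 and 2420.05 CPM (2610.4 ± 242 CPM), and ranked 33rd, 34th and 38th among all genes. CYR61 had 11594, 6998 and 10948 reads, or 1377, 1410.2 and 1540.5 CPM (1443 ± 86.3 CPM), and ranked 74th, 69th and 64th. CTGF was above CYR61 in every library, with log2 ratios of 1.07, 0.84 and 0.65 (0.85 ± 0.21). CTGF fell from replicate 1 to replicate 3, the same order of libraries as YAP1, while CYR61 rose. Their sum, in which these opposite changes partly cancel, differed by a factor of 1.08 between its highest and lowest library. The sum of YAP1 and WWTR1 differed by a factor of 2.02 over the same libraries. The spread of YAP1 itself was not called in the edgeR test (adjusted p 0.449). Whether the target sum follows the co-activator sum was not tested. Both targets are also induced by serum and by other pathways, and no perturbation of YAP1, WWTR1 or the TEAD genes was measured.

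**Figure D3:**
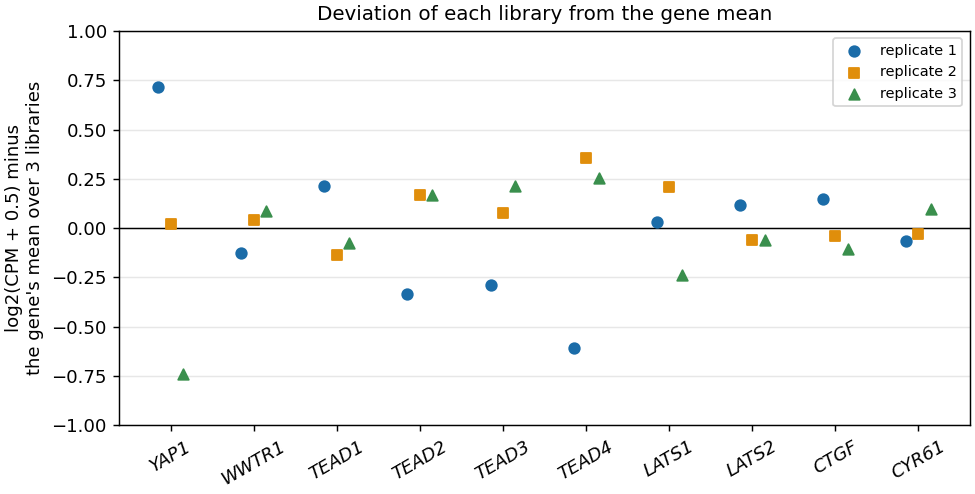
Deviation of each library from the gene's mean on the log2(CPM + 0.5) scale, for the 10 genes. YAP1 spans 0.72 in replicate 1 to -0.74 in replicate 3. WWTR1, TEAD2, TEAD3, TEAD4 and CYR61 are lowest in replicate 1, and WWTR1, LATS2, CTGF and CYR61 stay within 0.15 of their means.

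The spread of each gene was set against that of genes at a similar level with a negative binomial model fitted in edgeR to all 10434 genes with 10 or more reads in every library. All 10 genes passed this filter, and 0 of 10 were more variable than the trend at an adjusted p under 0.05, against 0.0192% of the genes tested (2 genes). At an unadjusted p under 0.05 there was 1 of 10, against 5.24% of the genes tested, and with DESeq2's dispersion trend there were also 0 of 10 after adjustment. YAP1 came nearest, with a CV of 48.6% where the trend gave 21.2% for biological variation. Its edgeR p was 0.00548 unadjusted and 0.449 after Benjamini-Hochberg adjustment, and 125 genes had a larger statistic. Without replicate 3, the library where YAP1 was lowest, its unadjusted edgeR p was 0.0713, and 0 of 10 genes were under 0.05. Its unadjusted edgeR p was 0.0131 without replicate 1 and 0.0186 without replicate 2, with 1 of 10 genes under 0.05 each time. After adjustment these were 0.868 and 0.997. Among the 1381 genes at 100 CPM or more in every library, 17 had a larger CV than YAP1, and the median CV of the 1381 was 12.4%.

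A lack of calls says little here, because the test found few moderate changes. On counts simulated for this test, with 10072 genes passing the filter, it called 4 of 97 genes with a 2-fold increase in a single replicate and 57 of 94 with a 4-fold increase. The other members had CVs of 5.99% (CYR61) to 35.2% (TEAD4). The median CV of the 10 genes was 14.4%, beside 22.4% over all genes tested. CV falls with level, and 5 of the 10 genes are at 100 CPM or more. Replicate 1, where YAP1 was highest, was also the deepest library, and replicate 3, where it was lowest, had the largest share of reads in no annotated gene, at 62.0% against 59.2% in replicate 1 and 58.9% in replicate 2. The part of these in the spread of YAP1 was not tested.

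**Figure D4:**
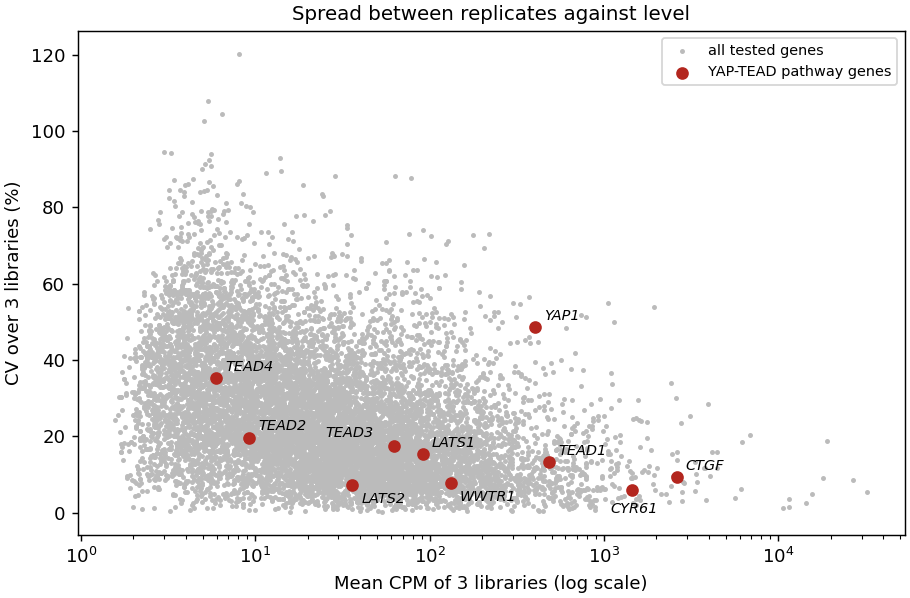
CV over the 3 libraries (%) against mean CPM (log axis) for the 10434 genes tested (grey) and the 10 pathway genes (red). YAP1, at 48.6%, lies near the upper edge of genes at its level, and the other 9 lie within the body of the cloud.

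Genes around the pathway were mostly measured as well. Outside the 10 genes, 7 lists named 88 further genes, of which 85 had a row and 76 of 85 were measured, against 34.6% of all genes in the table. None of these 76 genes was more variable than the trend after adjustment in edgeR (0 of 76, also 0 with DESeq2's dispersion trend). That compares with 0.0192% of all genes tested. At an unadjusted edgeR p under 0.05 there were 4 of 76, near the share of 5.24% over all genes tested. The 4 were FAT4, MOB1B, PDCD10 and MOB4, and all were highest in replicate 1, as 33 of the 76 measured genes were. Over all measured genes 39.5% were highest in replicate 1, 23.8% in replicate 2 and 36.7% in replicate 3. Of the 10 YAP-TEAD genes 4, 3 and 3 were highest in replicates 1 to 3.

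In the kinase module around LATS, 17 of 18 genes were measured, with a median of 54.4 CPM. The highest were MAP4K3 (131 ± 37.6 CPM), a kinase of the MAP4K family that can phosphorylate LATS, its relative TNIK (127 ± 13.1 CPM), the LATS-related kinase STK38 (112 ± 10.6 CPM) and TAOK1 (95.3 ± 13.6 CPM), which activates the MST kinases. The MST kinase genes themselves stood at 72.9 ± 13.4 CPM for STK3 and 15.9 ± 1.84 CPM for STK4, and their scaffold SAV1 at 24.5 ± 3.56 CPM. MOB1A and MOB1B encode the co-activator proteins of LATS. MOB1B stood at 132, 67.7 and 64.9 CPM in replicates 1 to 3. The edgeR test of its spread gave an unadjusted p of 0.0381 and an adjusted p of 0.889. NF2, the gene of merlin, stood at 17.7 ± 3.45 CPM, and MAP4K1, a kinase of blood cells, had 0 reads in every library. A count of 0 allows up to 0.605 CPM in the shallowest library, if reads could be assigned to the gene.

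Regulators at cell junctions and in cell polarity had 15 of 17 genes measured, with a median of 39.6 CPM. FAT4, an atypical cadherin, was the highest at 825, 448 and 419 CPM in replicates 1 to 3 (564 ± 226 CPM). The edgeR test of its spread gave an unadjusted p of 0.0254 and an adjusted p of 0.781. DCHS1, the gene of the partner cadherin of FAT4, stood at 66.5 ± 15.1 CPM and was lowest in replicate 1. AMOTL2 (255 ± 36.8 CPM), of the angiomotins that bind YAP1, WWC2 (245 ± 17.6 CPM), of the KIBRA family that activates LATS, and FRMD6 (232 ± 35.5 CPM) followed. Their relatives AMOT (8.61 ± 4.51 CPM) and WWC1 (11.7 ± 4.98 CPM) had fewer reads. RASSF2 had 8, 4 and 31 reads and CRB3, a polarity gene of epithelia, 0 reads.

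STRIPAK, a complex that brings protein phosphatase 2A to the MST and MAP4K kinases and so lowers their activity, had 15 of 16 genes measured, with a median of 26.4 CPM. Its highest genes were PPP2CA (200.2 ± 20.5 CPM), a catalytic subunit of the phosphatase, PDCD10 (192 ± 111 CPM), SLMAP (131 ± 33.5 CPM) and STRN3 (131 ± 42.7 CPM). PDCD10 stood at 276, 233 and 66.0 CPM in replicates 1 to 3, with an unadjusted edgeR p of 0.00122 and an adjusted p of 0.255. MOB4 stood at 105, 69.3 and 44.7 CPM, with an unadjusted edgeR p of 0.0491 and an adjusted p of 0.942. Of the 15 measured genes 10 were highest in replicate 1, against 39.5% of all measured genes. STRIP2 had 3, 0 and 0 reads.

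Proteins that hold or degrade phosphorylated YAP1 and TAZ include the 14-3-3 family, the beta-TrCP ubiquitin ligases and casein kinase 1. Their genes were measured in 10 of 11 cases, with a median of 119.8 CPM. The highest were all 14-3-3 genes, YWHAE at 1008 ± 63.6 CPM, YWHAB at 438 ± 27.6 CPM, YWHAQ at 349 ± 106 CPM and YWHAG at 201 ± 17.9 CPM. SFN, the 14-3-3 gene typical of epithelia, had 0, 1 and 0 reads. The beta-TrCP genes FBXW11 and BTRC stood at 119.8 ± 25.1 CPM and 55.6 ± 7.496 CPM.

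Of the VGLL genes, whose products compete with YAP1 and TAZ for TEAD, 2 of 3 were measured. VGLL3 stood at 200.5, 219 and 241 CPM in replicates 1 to 3 (220.2 ± 20.4 CPM) and had more reads than WWTR1 in every library. VGLL4, which represses TEAD targets, had 23, 17 and 41 reads (3.98 ± 1.59 CPM), and VGLL1 had 0 reads.

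The further CCN genes had fewer reads than CTGF and CYR61. NOV stood at 229, 159.8 and 150.3 CPM (179.8 ± 43.1 CPM), WISP1 at 52.3 ± 12.1 CPM and WISP2 at 8.52 ± 2.13 CPM, and WISP3 had 2, 0 and 0 reads. NOV, the highest of these, had fewer reads than CYR61 in every library.

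A list of 22 genes used to score YAP and TAZ activity, mainly in human cancers, had 19 of 21 genes measured, with a median of 81.9 CPM. It includes CTGF, CYR61 and LATS2, shares AMOTL2 and PTPN14 with the junction list, and was taken up with earlier results of these data known. After CTGF and CYR61 its highest genes were MYOF, a membrane repair protein, at 1094, 1102 and 1151 CPM in replicates 1 to 3 (1116 ± 30.8 CPM), and the matrix protein gene CCDC80 at 509.9, 645 and 799.5 CPM (651 ± 145 CPM). MYOF had a CV of 2.76%, and CCDC80 was highest in replicate 3 and lowest in replicate 1. The tissue factor gene F3 and the transcription factor gene FOXF2 had 0 reads in every library. ANKRD1, another frequently used target, stood at 281, 244 and 308 CPM (278 ± 32.2 CPM). Summed over the list, the level was 7843, 7497 and 7754 CPM. In the edgeR test of spread 0 of the 19 genes had an unadjusted p under 0.05, against 5.24% of all genes tested. After adjustment there were also 0 of 19, against 0.0192%.

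**Figure D5:**
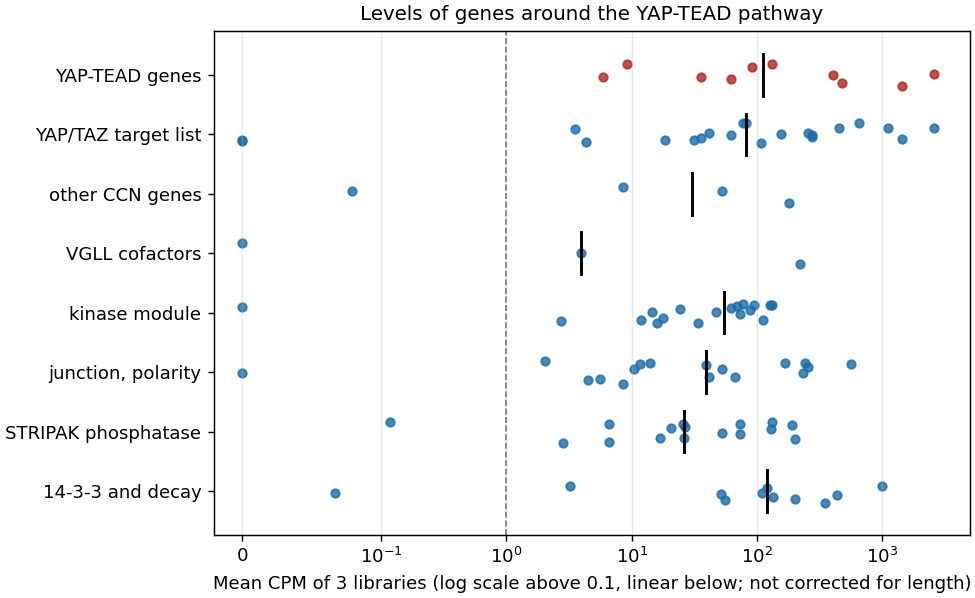
Mean CPM of 3 libraries for each gene of the 10 YAP-TEAD genes (red) and of the lists around them (blue), on a scale that is logarithmic above 0.1, with the median of each list as a bar and 1 CPM as a dashed line. Most genes lie right of the dashed line, and single genes of several lists lie at or near 0.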

How the data were processed

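The deposited table holds read counts per gene symbol, whole numbers that the authors did not normalize, in 3 columns that each match 1 replicate, beside 0 columns of other samples. Per the labels' protocols, cDNA of lysed cells was amplified by single-primer isothermal amplification and sequenced as single reads of 100 bases. The submitters' processing notes name HTSeq 0.6.1, TopHat2 2.0.10 and bcl2fastq 2.18.0.12. Not given in the sources used here are build, annotation, counting mode and strand setting. The 5 summary rows were left out of library sizes: reads in no gene were 58.9 to 62.0% of each library, and reads with several alignments 7.52 to 7.99%.

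CPM used TMM factors of 0.978, 1.02 and 0.998 (edgeR 4.0.16, R 4.3.3). Spread was tested with edgeR's trended dispersion, intercept only, as Pearson's statistic on 2 degrees of freedom (chi-square), Benjamini-Hochberg adjusted over 10434 genes with 10 or more reads in every library, and was tested on simulated data. DESeq2 1.42.0 served as an alternative. Planned levels per kilobase and promoter motifs were not computed, since transcript lengths and sequences were not used here. Named from each list were the 4 highest genes, and those under 1 CPM in some library where 6 or fewer. Genes with an unadjusted p under 0.05, and others for their role, were added after their values were seen. The 10 genes and the lists were chosen with earlier results of these data known. LIMD1, VGLL2 and FJX1 were not analysed here.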

Additional observations from a re-analysis of the deposited data

How the results depend on the processing

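DESeq2 size factors and plain totals moved the mean CPM of the 10 genes by at most 0.509%, and all 6 ratios between genes kept their direction at pseudocounts of 0.1 and 1 and without each replicate. The log2 ratio of WWTR1 over YAP1 ranged from -1.91 to -1.07 without 1 replicate. The count of genes more variable than the trend was 2 with all replicates, 5 with DESeq2 size factors and 2 with DESeq2 size factors and its dispersion trend. Leaving out 1 replicate gave 0 to 6 genes (6 without replicate 1, 0 without replicate 2 or 3, where 419 and 449 genes had an unadjusted p under 0.05). None of the 10 genes was called under any of these alternatives, where the adjusted p of YAP1 was 0.429 to 0.997, or with plain totals, chosen after seeing the data. At 10 CPM in every library, 1 of 3 VGLL genes was counted, against 2 at 1 CPM. Ratios corrected for length were not run. No paired analysis was possible because the series has 1 group. Depth limits TEAD2 and TEAD4 most, with 30 to 73 reads per library. The test of spread rests on 3 libraries, and 1 degree of freedom once 1 is left out.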
